A study of Mesocricetus auratus with 24 samples.

Results

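The comparison described here is that of the liver of hamsters on a high-fat diet (HFD) with the liver of hamsters on a normal diet (ND). Its members are the 16 libraries that the labels place on these diets without the test compound, 8 HFD and 8 ND, out of 24 libraries in the series. All came from male golden Syrian hamsters labelled as wild type, and whole liver was used for RNA sequencing. The HFD supplied fat mainly as hydrogenated coconut oil and also contained fructose and added cholesterol. The remaining 8 libraries came from hamsters given the same HFD with 5% T070. They entered the statistical fit, where they share in the estimate of the spread, but are not described. The labels give 6 weeks of feeding, whereas the methods of the study give 12 weeks from 8 weeks of age, and the data cannot settle which applies. Hamsters were kept 2 or 3 to a cage, and the sources used here do not tell which of the sequenced animals shared a cage or how they were chosen. Each library was treated as 1 animal.

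The liver takes up dietary lipid and sugar, makes fatty acids and sterols from acetyl-CoA, and exports lipid in lipoproteins. Dietary cholesterol is known to repress the hepatic genes of sterol synthesis, and sugar is known to induce those of fatty acid synthesis. A liver that stores lipid may also gain macrophages, which carry enzymes of lipid mediator metabolism. The hamster is used for such studies because its lipoprotein profile is closer to the human one than that of the mouse.

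The table held counts for 22283 genes under Ensembl identifiers. Total counts ran from 15289624 to 20740364 in ND and from 10789142 to 19809400 in HFD, the lowest being HFD replicate 7. The identifiers were paired with symbols only for the metabolism genes that the study lists, so pathways, cell type markers and the defining genes of liver were not checked. Levels are CPM, counts relative to the library total after scaling by the trimmed mean of M values (TMM), and were compared only within a gene, since gene lengths were not used here.

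One library labelled HFD, replicate 1, stood apart from its group. Each library was placed on a scale on which 0 is the mean ND profile and 1 the mean profile of the other HFD libraries, the library itself being left out of both. The ND libraries lay between -0.10 and 0.17. HFD replicate 1 lay at 0.0203, within the ND range. HFD replicate 2 lay at 0.790 and HFD replicate 7 at 0.997, and the other 5 HFD libraries lay between 1.18 and 1.28. These values have replicate 1 in the reference of the other HFD libraries. With it kept out, replicate 2 lay at 0.686, replicate 7 at 0.841 and the other 5 between 1.03 and 1.11. A mean close to 1 is set by the construction of the scale, so no mean is read from it. The library labelled HFD replicate 1 was kept in its group, and fold changes and tests are also given without it. It was singled out from its own values, so the values without it describe the remaining 7 libraries and are not an independent test.

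**Figure D1:**
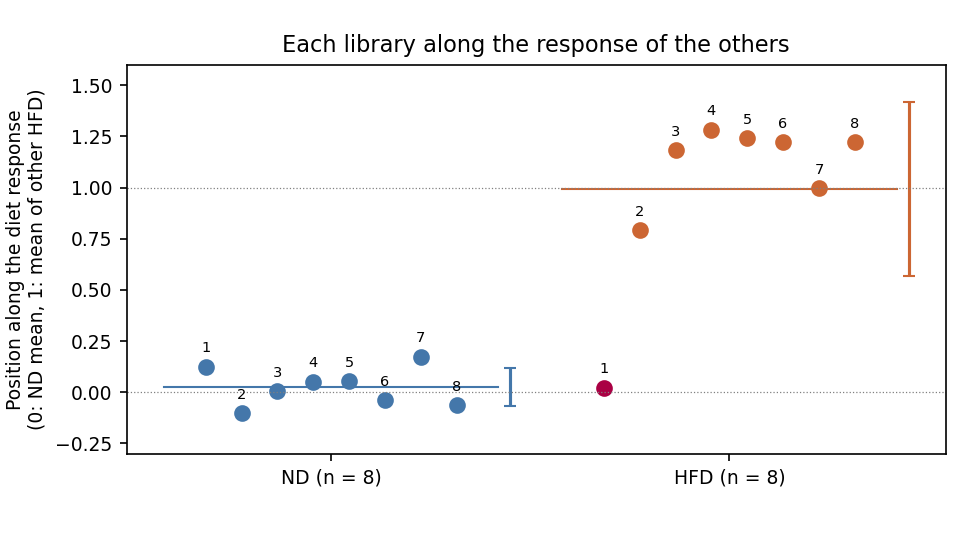
Position of each ND and HFD library (points) along the diet response, where 0 on the vertical axis is the ND mean and 1 the mean of the other HFD libraries. HFD replicate 1 sits at 0.0203 among the ND libraries, and HFD replicate 2 at 0.790 is the next lowest of its group.

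The resemblance of HFD replicate 1 to ND held gene by gene. Among the genes whose values did not overlap between the other 7 HFD libraries and the 8 ND libraries, 2974 in all, replicate 1 lay within the ND range at 2199 (73.9%). It lay level with or past the nearest of the other HFD libraries at 188 (6.32%). It lay between the groups at 314 and past the far side of the ND range at 273. The same count was made for each of the other HFD libraries, over genes separated by the remaining 6. Replicate 2 then lay within the ND range at 20.9% of such genes and replicate 7 at 16.3%, whereas the others did so at 0.801% to 3.28%. HFD replicate 7 also left the range of its own group most often, where its value lay outside the range of the other 7 at 56.7% of the genes tested, against 49.7% for replicate 1 and 8.09% to 21.2% for the other HFD libraries. Within ND the same share ran from 13.8% to 40.9%, the highest being ND replicate 8. The part of total count, animal or label in these differences was not tested.

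The diet comparison asks which hepatic transcripts differ after the HFD. Of 13134 genes tested, 7044 (53.6%) passed an adjusted p of 0.05 in edgeR's quasi-likelihood test with Benjamini-Hochberg adjustment. Of these, 3592 (27.3%) were higher and 3452 (26.3%) lower in HFD. Without HFD replicate 1, 7673 of 13218 genes (58.0%) passed, 4030 (30.5%) higher and 3643 (27.6%) lower. The 2 sets of calls shared 6889 genes, so that 155 calls were lost and 784 gained. Without HFD replicates 1 and 7, 8472 of 13279 genes passed.

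Near-equal counts in each direction hid unequal sizes. At a change of at least 2-fold, 1627 of the called genes were higher and 374 lower (2001 genes, 15.2% of those tested). At least 4-fold, 541 were higher and 37 lower, and at least 8-fold, 197 were higher and 2 lower. Without HFD replicate 1 the corresponding counts were 1848 and 558 (2406 genes, 18.2%), 669 and 104, and 240 and 30. The excess of rises of at least 2-fold lay in genes under 100 CPM (mean over the libraries), where the called rises and falls numbered 328 and 30 under 1 CPM, 836 and 124 at 1 to 10 CPM and 403 and 124 at 10 to 100 CPM. At 100 CPM or more, rises numbered 60 and falls 96, and 70 and 167 without replicate 1. Many weakly expressed genes can pass the filter on low counts through the group in which they are high, so the counts of rises among them are not read as an excess over chance. The number of falls of at least 8-fold went from 2 to 30. Under limma voom, which averages log values, 168 genes rose and 19 fell at least 8-fold with all libraries kept. The fit used here averages on the scale of counts, so 1 library with high counts raises the fitted level of a gene that is low in the others.

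**Figure D2:**
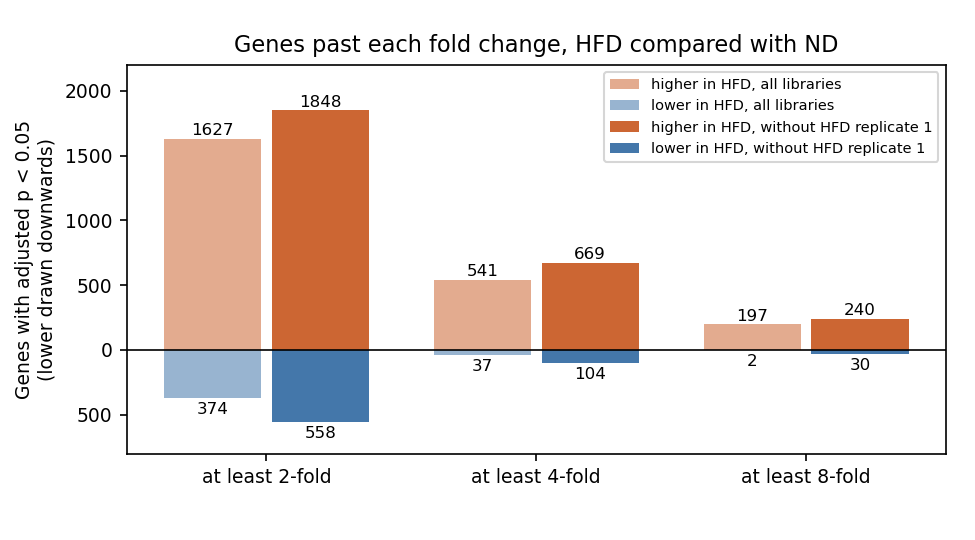
Number of genes with an adjusted p under 0.05 (vertical axis; bars above 0 higher in HFD, bars below 0 lower) at each minimum fold change, with all libraries and without HFD replicate 1. Rises outnumber falls in every class, and falls of at least 8-fold go from 2 to 30 when replicate 1 is left out.

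The typical change was small. The median absolute log2 fold change of all genes tested was 0.31 (jackknife SE 0.0413 over the 16 libraries), and 0.35 without HFD replicate 1. Over the called genes it was 0.59 and 0.63. The median signed log2 fold change was -0.03, so the TMM-scaled comparison was centred close to 0. Under library totals without TMM it was 0.29, and 85.4% of the called genes were then higher, against 51.0% after TMM. The division into higher and lower genes thus depended on the scaling, and directions below are relative to the bulk of genes.

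Direction varied with expression level. Among 1459 genes of at least 100 CPM, 65.6% were called, 223 higher and 734 lower. Among 6713 genes of 10 to 100 CPM, 1491 were higher and 2065 lower, and among 4032 genes of 1 to 10 CPM, 1481 were higher and 581 lower. Higher genes thus made up 23.3%, 41.9% and 71.8% of the calls from the most to the least expressed of these classes. Under library totals the shares were 56.8%, 86.6% and 91.8%, so the majority turned for the classes above 10 CPM while the order of the classes stayed. The filter on low counts admits a weakly expressed gene through the group in which it is high, which bears on the lowest classes. When HFD replicate 1 was left out, the calls were 252 higher and 775 lower at 100 CPM or more, 1695 and 2150 at 10 to 100 CPM and 1619 and 638 at 1 to 10 CPM.

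The change in abundant genes was visible in how counts were distributed. The 100 genes with the highest mean CPM held 61 genes that were lower in HFD, 9 that were higher and 30 without a call, and their median log2 fold change was -0.54 against -0.03 for all genes. Their log2 fold changes ran from -1.41 to 1.87. Without HFD replicate 1, 62 were lower and 11 higher, and under library totals 48 were lower and 18 higher. The single most counted gene was the same in all 24 libraries. It took 10.0% to 12.3% of counts in ND, 10.9% in HFD replicate 1 and 4.25% to 9.04% in the other HFD libraries, of which replicate 7 was the highest. Its log2 fold change was -1.09 (SE 0.36, adjusted p = 0.0123), and -1.31 without replicate 1 (adjusted p = 1.70e-04).

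Measures of each library as a whole also differed between the diets. The 100 most counted genes of each library took 46.3% ± 0.956 of counts in ND and 40.2% ± 4.39 in HFD (SD, n = 8 each; two-sided exact permutation p = 0.00373, also 0.00373 after adjustment over 3 measures). The HFD value without replicate 1 was 39.3% ± 3.84 (SD, n = 7, exact permutation p = 0.00155). HFD replicate 7, at 46.4%, still lay within the ND range of 44.7% to 47.6%. At an equal depth of 10789142 counts, genes with at least 5 counts numbered 12730 ± 153 in ND and 13373 ± 347 in HFD (SD, n = 8 each; exact permutation p = 7.77e-04, adjusted 0.00233). The ND values ran from 12482 to 12961 and the HFD values from 12722 to 13714, so the groups overlapped. Without HFD replicate 1 the HFD values started at 13111 and no longer overlapped ND (exact permutation p = 3.11e-04, the smallest that 7 against 8 libraries can give). Replicate 1 held the lowest HFD value, 12722, and was left out because its profile resembled ND. The p-values without it, here and for the other measures of this paragraph, are therefore a description and not an independent test. The TMM factor was 0.884 ± 0.0316 in ND and 1.11 ± 0.148 in HFD (SD, n = 8 each; exact permutation p = 0.00202, adjusted 0.00303), and 1.14 ± 0.122 in HFD without replicate 1 (SD, n = 7, exact permutation p = 6.22e-04). On the TMM factor too, HFD replicate 7, at 0.927, lay within the ND range of 0.834 to 0.941. It did not resemble ND on every measure. Its 10 most counted genes took 27.7% of counts, above the ND range of 22.0% to 25.3%. At 6193 genes it lay outside the range of all other ND and HFD libraries, against 3022 for the next highest, ND replicate 8. Total counts did not pass a test between the diets (exact permutation p = 0.621, n = 8 each).

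The genes called lower took 59.9% ± 0.894 of the counts in ND and 43.8% ± 6.52 in HFD, or 41.7% ± 2.78 without replicate 1, in which they took 58.6%. The genes called higher took 8.08% ± 0.446 in ND and 17.6% ± 4.06 in HFD, or 18.9% ± 1.87 without replicate 1, in which they took 8.53%. These genes were chosen on the same libraries, so the shares are a description. Genes without a call took 32.0% in ND and 38.5% in HFD.

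**Figure D3:**
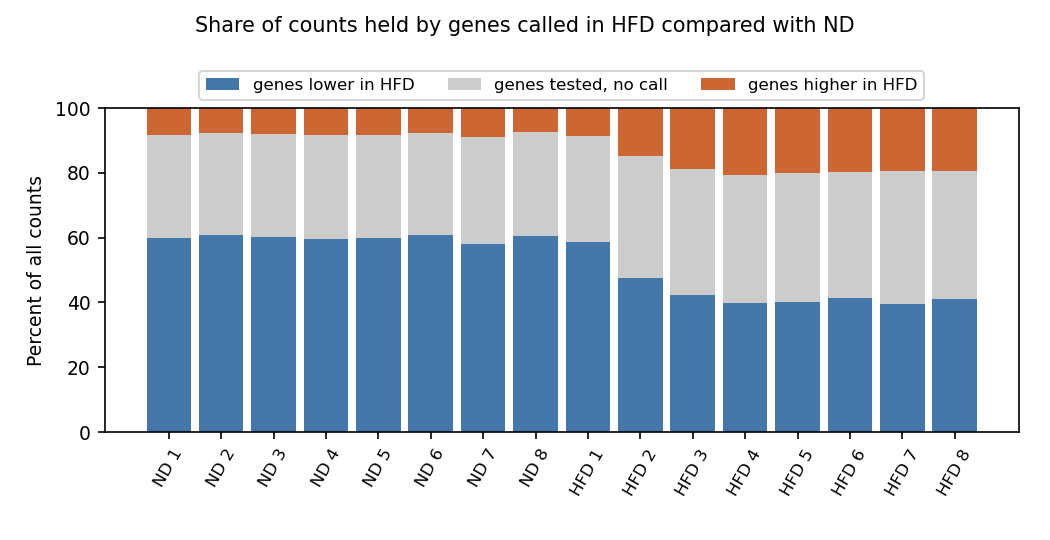
Percent of all counts (vertical axis) taken in each ND and HFD library by genes called higher in HFD, called lower and not called. The bar of HFD replicate 1, with 58.6% in genes called lower, resembles the ND bars, which hold 58.0% to 60.8%.

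The spread within each diet was also computed. The median SD of log2 CPM over genes was 0.21 in ND and 0.33 in HFD, and 75.5% of genes had the larger SD in HFD. Without replicate 1 the median was 0.29. Without replicates 1 and 7 it was 0.17, below ND, and 32.2% of genes had the larger SD in HFD. These 2 libraries were left out because they stood furthest from their own group, while ND was kept whole, so a smaller SD was set by the choice and is not read as a difference between the diets.

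The metabolism genes listed in the study are the only source of symbols here and are described gene by gene. They are few for each function and do not stand for whole pathways. The study chose them for a difference between HFD and HFD with T070, using these same HFD libraries, so their direction against ND is not independent evidence. Of the 17 reported here, 13 were higher in HFD (27.3% of all genes tested were) and 1 was lower (26.3% of all genes). Some had so few ND counts that they passed the filter on low counts through libraries of hamsters fed the HFD. Atp6v0d2, Asns and Alox5, for example, had 1, 21 and 23 counts over the ND libraries. Such genes could hardly be called lower, so the counts for the list are a description and not a contrast with all genes. Without HFD replicate 1, 13 were higher (30.5% of all genes) and 3 lower (27.6%). Their median log2 fold change was 2.58, and 2.75 without replicate 1. With all libraries only Alpl did not overlap between the diets (2.03% of all genes did not overlap on the higher side and 1.79% on the lower). Without replicate 1 it was 14 of 17, against 13.1% and 9.51% of all genes. Replicate 1 lay within the ND range at 12 of the 17.

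**Figure D4:**
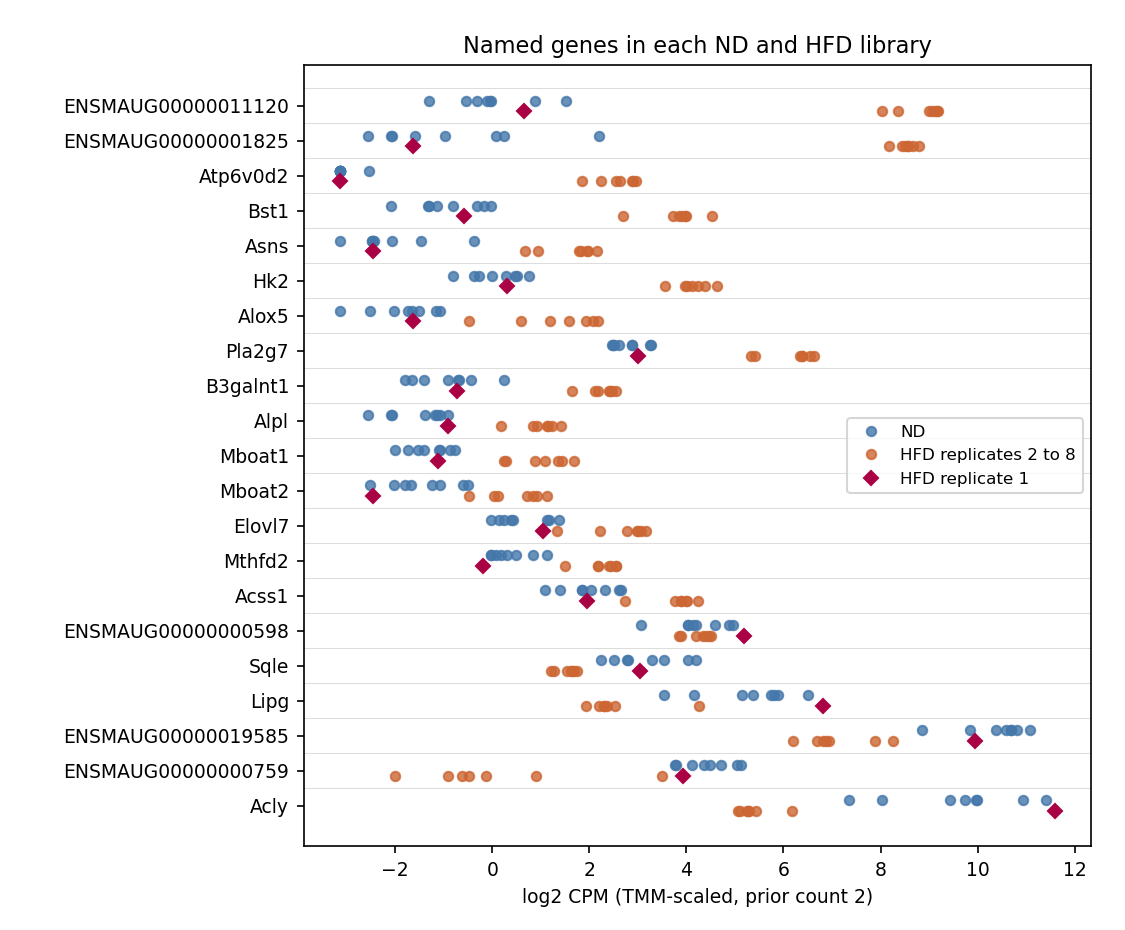
log2 CPM (horizontal axis, TMM-scaled, prior count 2) of each named gene in every ND and HFD library, 1 point per library. HFD replicate 1 (diamonds) lies within the ND points for most genes, above them for Acly, Lipg, ENSMAUG00000000598 and, barely, Alpl, below them for Mthfd2, and apart from the other HFD points in nearly every row.

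Among the listed genes of acetyl-CoA and sterol supply, Acly showed the widest gap. Acly encodes ATP-citrate lyase, the cytosolic enzyme that cleaves citrate to give acetyl-CoA for fatty acid and sterol synthesis. Its level was 164 to 2706 CPM in ND (median 931). It was 33.4 to 72.3 CPM (median 38.3) in HFD replicates 2 to 8, all below every ND library, and 3108 CPM in HFD replicate 1, above every ND library. With all libraries the log2 fold change was -1.35 (SE 0.90) and did not pass the test (adjusted p = 0.213), whereas limma voom on the same libraries gave -3.44 and a call (adjusted p = 0.00132). Without replicate 1 it was -4.65 (SE 0.56, adjusted p = 1.46e-07), a level 25.1-fold lower. Acly also ranged widely within ND, its highest library being 16.5-fold above its lowest.

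Sqle, squalene epoxidase of the sterol pathway, was lower. Its level was 4.65 to 18.3 CPM in ND (median 8.27), 8.15 CPM in HFD replicate 1 and 2.19 to 3.26 CPM (median 2.95) in the other HFD libraries. Only replicate 1 overlapped ND. Sqle had a log2 fold change of -1.54 (SE 0.28, adjusted p = 7.16e-05), and -1.80 (SE 0.25) without it.

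Acss1, which makes acetyl-CoA from acetate in mitochondria, moved the other way. It rose from 2.03 to 6.199 CPM in ND (median 3.75) to 6.52 to 18.7 CPM (median 14.8) in HFD replicates 2 to 8, with replicate 1 at 3.76 CPM. The log2 fold change was 1.68 (SE 0.26, adjusted p = 9.95e-06), and 1.84 (SE 0.21) without replicate 1. Elovl7, an elongase of long-chain fatty acids, was at 0.869 to 2.47 CPM in ND (median 1.21), 1.95 CPM in HFD replicate 1 and 2.40 to 8.83 CPM (median 7.75) in the others. The lowest of those others lay inside the ND range, so the groups overlapped even without replicate 1. The log2 fold change was 2.04 (SE 0.31, adjusted p = 1.01e-05), and 2.20 (SE 0.28) without replicate 1. Without replicate 1, Acly and Sqle were thus called lower, whereas Acss1 and Elovl7 were called higher.

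Hk2, hexokinase 2, phosphorylates glucose and is little expressed in healthy hepatocytes. It was at 0.462 to 1.57 CPM in ND (median 0.992), at 1.11 CPM in HFD replicate 1 and at 11.6 to 24.8 CPM (median 17.2) in the other HFD libraries. The 7 libraries were all well above ND. Hk2 had a log2 fold change of 3.96 (SE 0.40, adjusted p = 6.54e-08), and 4.16 (SE 0.25) without replicate 1.

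The listed genes of phospholipid and lipid mediator metabolism rose, apart from Lipg. In a bulk liver library, more cells of a type and more RNA per cell cannot be told apart, which applies to every value here. Pla2g7, the secreted phospholipase that inactivates platelet-activating factor and is made by macrophages, was at 5.38 to 9.49 CPM in ND (median 6.62) and 7.87 CPM in HFD replicate 1. The other HFD libraries held 40.4 to 98.2 CPM (median 83.2), none near ND. Pla2g7 had a log2 fold change of 3.25 (SE 0.32, adjusted p = 5.74e-08), and 3.44 (SE 0.20) without replicate 1.

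Alox5, the lipoxygenase that starts leukotriene synthesis in myeloid cells, was at 0 to 0.364 CPM in ND (median 0.196), 0.209 CPM in HFD replicate 1 and 0.600 to 4.39 CPM (median 2.87) in the others. Its log2 fold change was 3.73 (SE 0.50, adjusted p = 1.44e-06), and 3.92 (SE 0.41) without replicate 1. The 8 ND libraries held 23 Alox5 counts in all, so the ND level is imprecise. Mboat1 and Mboat2 encode acyltransferases that attach fatty acids to lysophospholipids. Mboat1 was at 0.136 to 0.472 CPM in ND and 1.07 to 3.11 CPM in HFD replicates 2 to 8 (log2 fold change 2.58, SE 0.35, adjusted p = 1.96e-06, and 2.75 without replicate 1). Mboat2 was at 0.0627 to 0.596 CPM in ND and 0.600 to 2.07 CPM in HFD replicates 2 to 8 (log2 fold change 2.06, SE 0.42, adjusted p = 2.80e-04, and 2.24 without replicate 1). The Mboat2 ranges nearly touched, and replicate 1 held 1 count of it.

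Lipg, endothelial lipase, which hydrolyses phospholipids of high-density lipoprotein, resembled Acly. It was at 11.6 to 90.9 CPM in ND (median 47.4), at 112.7 CPM in HFD replicate 1 and at 3.70 to 18.9 CPM (median 4.82) in the other HFD libraries. The highest of those others lay within the ND range. The log2 fold change was -1.20 (SE 0.62) with all libraries and did not pass (adjusted p = 0.105), whereas limma voom gave -2.29 and a call (adjusted p = 5.55e-04). Without replicate 1 it was -2.73 (SE 0.42, adjusted p = 5.17e-06).

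Both listed genes of amino acid and folate metabolism rose. Asns, which makes asparagine, was at 0 to 0.655 CPM in ND (median 0.0704), 0.0697 CPM in HFD replicate 1 and 1.496 to 4.33 CPM (median 3.42) in the others. Its log2 fold change was 4.02 (SE 0.54, adjusted p = 1.32e-06), and 4.22 (SE 0.41) without replicate 1. ND replicate 7 held 11 of the 21 counts over the 8 ND libraries, and without that library the log2 fold change was 4.86. Mthfd2, a mitochondrial folate enzyme, was at 0.868 to 2.09 CPM in ND (median 1.07) and 2.72 to 5.72 CPM (median 5.18) in HFD replicates 2 to 8. HFD replicate 1, at 0.766 CPM, lay below the ND range. The log2 fold change was 1.80 (SE 0.27, adjusted p = 8.47e-06), and 1.98 (SE 0.19) without replicate 1.

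The remaining genes of the list included the largest relative rises. Atp6v0d2, a subunit of the proton pump that acidifies lysosomes and is known from osteoclasts and macrophages, gave 1 count over the 8 ND libraries and none in HFD replicate 1. The other HFD libraries held 3.50 to 7.65 CPM (median 6.11). Against a limit of 3 counts per ND library it was at least 27.3-fold higher in HFD, and at least 31.2-fold higher without replicate 1 (adjusted p = 7.36e-07 and 1.22e-09). Bst1 (CD157), an ectoenzyme of myeloid and stromal cells that acts on nicotinamide adenine dinucleotide, was at 0.124 to 0.876 CPM in ND (median 0.401) and 0.557 CPM in HFD replicate 1. The others held 6.36 to 22.8 CPM (median 14.99), and its log2 fold change was 4.72 (SE 0.48, adjusted p = 7.03e-08), and 4.92 (SE 0.31) without replicate 1.

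B3galnt1, the glycosyltransferase that makes globoside, was at 0.174 to 1.08 CPM in ND (median 0.457) and 2.99 to 5.71 CPM (median 5.18) in HFD replicates 2 to 8 (log2 fold change 3.16, SE 0.36, adjusted p = 2.50e-07, and 3.35 without replicate 1). Alpl, tissue-nonspecific alkaline phosphatase, was at 0.0579 to 0.417 CPM in ND (median 0.300) and 1.01 to 2.57 CPM (median 2.06) in HFD replicates 2 to 8. Its value of 0.418 CPM in HFD replicate 1, from 6 counts, barely exceeded the highest ND library. The log2 fold change was 2.77 (SE 0.34, adjusted p = 6.71e-07), and 2.93 (SE 0.29) without replicate 1. ENSMAUG00000000598, listed without a symbol, was at 8.31 to 31.0 CPM in ND and 14.3 to 22.5 CPM in HFD replicates 2 to 8, with replicate 1 the highest of all at 36.1 CPM. It passed no test (log2 fold change 0.07, SE 0.21, adjusted p = 0.795), and its sign turned without replicate 1 (-0.058, SE 0.19).

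Other genes were chosen by the size of their change instead of their function. Among genes of at least 10 CPM outside the study's list, 1710 were called higher and 2677 lower both with and without HFD replicate 1. Genes tested numbered 6713 at 10 to 100 CPM and 1459 at 100 CPM or more, and 53.0% and 65.6% of these were called with all libraries. The excess of falls depended on the scaling, as 86.6% and 56.8% of the calls in these classes were higher under library totals. The largest changes of each direction carry no symbol here. They were picked by size among genes called both with and without HFD replicate 1. Passing the threshold was thus set by the choice, and sizes picked in this way may be overstated. The adjusted p-values and SEs of these rises and falls are therefore a description and not an independent test. ENSMAUG00000011120 was at 0.291 to 2.76 CPM in ND (median 0.838), 1.46 CPM in HFD replicate 1 and 262 to 583 CPM (median 535) in the other HFD libraries. Its log2 fold change was 8.60 (SE 0.73, adjusted p = 1.57e-08), and 8.81 (SE 0.37) without replicate 1. ENSMAUG00000001825 was at 0.0579 to 4.496 CPM in ND (median 0.307), 0.209 CPM in replicate 1 and 288 to 445 CPM (median 378) in the others, with a log2 fold change of 8.47 (SE 0.84, adjusted p = 6.02e-08), and 8.69 (SE 0.47) without replicate 1. ND replicate 4 held 66 of the 112 counts of ENSMAUG00000001825 in ND, and without that library its log2 fold change was 9.60. Both genes were above 100 CPM in 7 of 8 HFD libraries and below 5 CPM in every ND library and in HFD replicate 1.

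The 2 falls, ranked by the log2 fold change with all libraries, were smaller than the 2 rises. That ranking limits falls at which replicate 1 is high. Without replicate 1, 240 genes rose and 30 fell at least 8-fold, and the log2 fold change of Acly was -4.65. ENSMAUG00000000759 was at 13.4 to 34.6 CPM in ND (median 21.3), 15.05 CPM in HFD replicate 1 and 0.135 to 11.2 CPM (median 0.607) in the others, where replicate 2 held the highest value. Its log2 fold change was -2.60 (SE 0.65, adjusted p = 0.00168), and -3.34 (SE 0.61) without replicate 1. ENSMAUG00000019585 was at 461 to 2158 CPM in ND (median 1587), 983 CPM in replicate 1 and 73.6 to 306 CPM (median 117) in the others. Its log2 fold change was -2.48 (SE 0.47, adjusted p = 1.03e-04), and -3.21 (SE 0.37) without replicate 1.

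**Figure D5:**
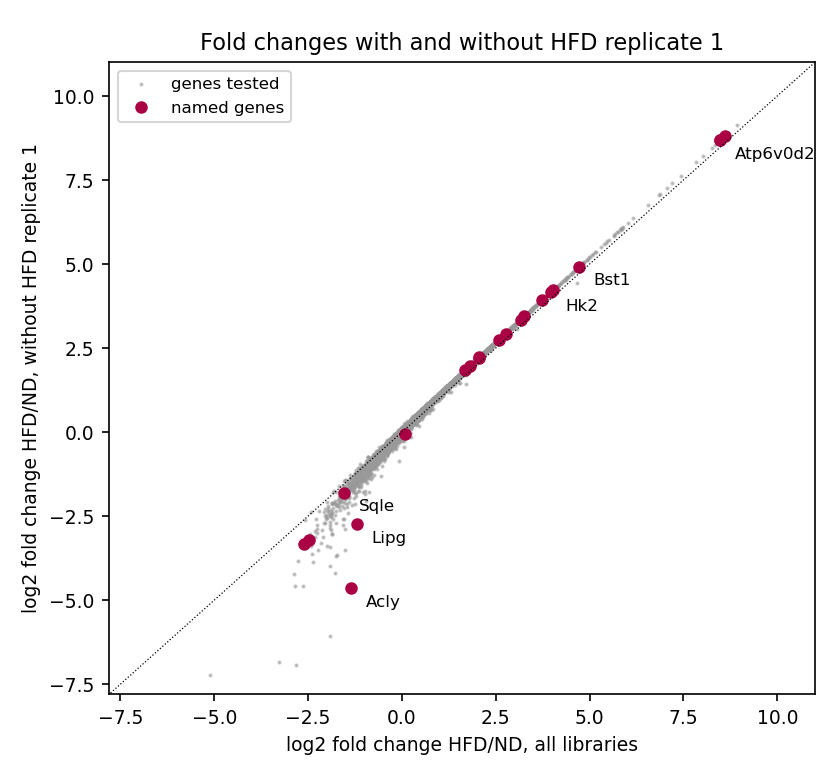
log2 fold change of HFD against ND for every gene tested, with all libraries (horizontal axis) and without HFD replicate 1 (vertical axis); the line marks equality and the larger points the named genes. Acly moves furthest from the line among the named genes, from -1.35 to -4.65, whereas the largest rises shift by about as little as 8.60 to 8.81.

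By construction, a rise from near 0 in 7 of 8 libraries keeps most of its size when the remaining library is at the ND level, whereas a fall is limited by that library the more, the higher its level. The log2 fold changes of Hk2, Pla2g7 and Bst1 each went up by 0.20 when replicate 1 was left out. Those of ENSMAUG00000000759 and ENSMAUG00000019585 fell by 0.74 and 0.73, whereas that of Sqle fell by 0.27, close to the shift of the rises. That of Lipg fell by 1.53, and that of Acly fell by 3.30.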

How the data were processed

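Total RNA of whole liver was depleted of ribosomal RNA and made into directional libraries, which the authors sequenced as single-end reads of 75 cycles, trimmed with Trimmomatic 0.36 and aligned to MesAur1 with STAR 2.7.10. The deposited values are whole-number counts per Ensembl gene, not normalized. The strand setting and annotation release are not given in the sources used here. Every column of the table was mapped to a sample by its name.

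From these counts, genes with low counts were removed with filterByExpr (minimum count 10, minimum total 15), leaving 13134 genes. The 24 libraries of the 3 groups were scaled by TMM and fitted together, as in the study, with the quasi-likelihood test of edgeR 4.0.16 (R 4.3.3). Adjustment was by Benjamini-Hochberg over all genes tested, with a threshold of 0.05. Log values used a prior count of 2. A count of 0 was taken to allow 3 counts, and this limit covers counting error only. Single values per library were compared by two-sided exact permutation tests, for which 8 against 8 libraries give 12870 splits and a smallest p of 0.0001554. The fit was also run on simulated counts with few changed genes and no library apart from its group, a setting unlike these data. Alternatives used limma 3.58.1, DESeq2 1.42.0, other scalings and filters, a replicate block and leaving out each library. Fits with the dispersions of estimateDisp and without HFD replicates 1 and 7 were added after the data were seen.

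Named genes were those of the study's list of metabolism genes, plus the 2 largest rises and 2 largest falls among genes of at least 10 CPM called with and without HFD replicate 1. A gene of that list is not reported here by name. The comparison, the libraries doubted and the lists were chosen with earlier results of these data known. No pathway or cell type list was used, because identifiers could not be paired with symbols, and no sequence was used. The spread between libraries is that between samples the labels number separately. Samples of 1 group differed by more than sampling noise (chi-square over degrees of freedom from 11.7 to 87.5 between ND pairs and from 8.07 to 228 between HFD pairs), so none was counted as a repeat of another.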

Additional observations from a re-analysis of the deposited data

Results flagged for a closer look

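Over 58 groups of 8 values, 18 held a library whose gap to the nearest other exceeded Dixon's 95% critical value for 8 samples. Chance flags about 1 in 20 groups, and the values of 1 library share their source, so the number of gaps is a description. Of the 18, 15 concerned HFD replicate 1, 1 concerned HFD replicate 7 and 2 concerned ND replicate 7.

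HFD replicate 1 lay at 0.0203 along the diet response, where the other HFD libraries lay between 0.790 and 1.28. Genes called higher took 8.53% of its counts (14.9% to 20.6% in the others), and genes called lower took 58.6% (39.6% to 47.6% in the others). Among genes that were low in the other HFD libraries, its log2 CPM was 11.60 for Acly (others 5.07 to 6.18) and 3.05 for Sqle (others 1.20 to 1.75). Among genes that were high in the others, its log2 CPM was 0.30 for Hk2 (others 3.56 to 4.64), 3.00 for Pla2g7 (others 5.34 to 6.62) and -2.45 for Mboat2 (others -0.49 to 1.13). For Asns it was -2.45 (others 0.69 to 2.15), for Mthfd2 -0.19 (others 1.504 to 2.54) and for Bst1 -0.58 (others 2.69 to 4.52). For Atp6v0d2 it was -3.14 (others 1.85 to 2.96) and for B3galnt1 -0.73 (others 1.63 to 2.54). For ENSMAUG00000011120 it was 0.66 (others 8.03 to 9.19) and for ENSMAUG00000001825 -1.63 (others 8.17 to 8.80). Whether diet exposure, the animal or the label of this library differed was not tested.

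HFD replicate 7 had the lowest total, 10789142 counts. ND replicate 7 had the lowest share of counts in the genes called lower, 58.0% (others 59.6% to 60.8%). It was also the ND library with the only Atp6v0d2 count, at a log2 CPM of -2.53 where the others were at -3.14.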

How the results depend on the processing

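With a log2 change of 1 or more in either direction also required, calls numbered 2001, 1627 higher and 374 lower. Library totals without TMM gave 6608 higher and 1129 lower. The median absolute log2 fold change was 0.38 under library totals, 0.37 under voom with sample quality weights, 0.40 with no filter and 0.27 with at least 10 counts in every library. Leaving out each library in turn gave 6512 to 7673 calls (3380 to 4030 higher, 2932 to 3643 lower) and a median of 0.30 to 0.35. The quality weights were 0.0945 for HFD replicate 1 and 0.105 for HFD replicate 7, and 9292 genes were then called. The fit of ND and HFD libraries alone called 5702 of 12664 genes.

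For named genes, 553 of 569 alternative values kept their direction and side of the threshold. Acly passed it without HFD replicate 1 (-4.65), in ND and HFD libraries alone without that library (-4.64), under voom (-3.44), voom with quality weights (-4.58) and without HFD replicates 1 and 7 (-4.82). Lipg did so under the same settings (-2.73, -2.72, -2.29, -3.12 and -2.70). ENSMAUG00000000598, never called, turned negative without ND replicate 4 (-0.024), without HFD replicate 1 (-0.058), without it in ND and HFD alone (-0.050) and without HFD replicates 1 and 7 (-0.0077), and ran from -0.058 to 0.21 as each library was left out.

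A replicate block called 6960 genes, 3486 higher and 3474 lower, and Acly (-3.74, adjusted p = 0.00189) and Lipg (-2.20, adjusted p = 0.00772) passed with it. Deviations of same-numbered ND and HFD libraries correlated at -0.237 to 0.180, above 0.1 in 2 of 8 pairs. Of the HFD libraries, 0 of 8 correlated best with the ND library of their own number. The deviations were taken from group means that include HFD replicate 1. Whether samples of the same number share more than that number was not tested. The causes of these changes were not tested. Genes near the limit of 3 counts per library, such as Atp6v0d2, Asns and Alox5 in ND, have imprecise ND levels.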

Other observations

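No gene with at least 3 counts in at least 7 ND libraries was without a count in all 8 HFD libraries. In the other direction, 5 genes had no count in any ND library and at least 3 counts in at least 7 HFD libraries. They were ENSMAUG00000008273, ENSMAUG00000011442, ENSMAUG00000015898, ENSMAUG00000018617 and ENSMAUG00000009353. All 5 were also at 0 in HFD replicate 1, and their mean level in HFD was at least 3.13-fold to 17.5-fold higher than the limit of 3 counts per ND library allows. They were chosen for this pattern, so no test is given.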
